A study of Homo sapiens with 6 samples.

Results

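The genes described here encode the machinery that brings new proteins into the endoplasmic reticulum (ER) and the coats and receptors that carry them between the ER and the Golgi. They were chosen by gene symbol among the protein-coding genes of the count table, which gave 67 members of 30618 genes listed. The rule itself uses no measured value, but the set was proposed with earlier results of these data known. By the named complex of each product, 23 members belong to ER entry (signal recognition particle, its receptor, the Sec61 translocon with SEC62 and SEC63, the translocon-associated protein complex and signal peptidase) and the other 44 to vesicle transport (COPII and COPI coats, p24 family, KDEL receptors, L-type lectins and the SEC22 SNAREs).

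The libraries came from ARPE-19, an established human retinal pigment epithelial line, transfected with a non-targeting siRNA (NC) or with an siRNA against EIF1 (siEIF1), with 3 libraries in each group. EIF1 is the initiation factor that helps the scanning ribosome to choose its start codon. All 6 libraries came from cells in 50 mM glucose, so the comparison isolates the siRNA and not the glucose. Each siRNA group used 1 siRNA sequence in 1 cell line, and neither normal glucose nor an osmotic control is compared here. The study describes independent biological replicates, and its 6 samples were prepared in parallel and sequenced in 1 run.

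Total counts were 26499929 to 31431479 per library. The EIF1 transcript checked the labels: its deposited FPKM was 294.35, 281.08 and 281.28 in NC and 24.28, 22.68 and 23.5 in siEIF1, a log2 difference of -3.58 (SE 0.055). The epithelial keratins KRT8 and KRT18 and the retinal pigment epithelial genes BEST1, OTX2 and MITF were present in every library. The strand setting of the counts is not known, and whether BEST1 holds reads of an overlapping gene was not tested. RLBP1, TYR, TYRP1, LRAT and PMEL, which mark mature pigment epithelium, had FPKM of at most 0.73, and SERPINF1 had 1.41 to 2.22. Of genes that mark other cells, PECAM1, CDH5, ALB and GFAP had at most 0.05 and CD68 0.83 to 0.97. RPE65 and PTPRC were not analysed here. KRT8 and KRT18 were themselves higher in siEIF1, by 0.24 and 0.25 on the log2 scale, and RLBP1 by 1.55. BEST1 ran from 60.54 to 70.79 FPKM in NC and from 38.79 to 62.06 in siEIF1. Whether these marker differences bear on the secretory genes was not tested, and in bulk libraries a shift in the mix of cells cannot be told apart from a shift in RNA per cell.

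A secreted or membrane protein begins its route when the signal recognition particle binds the hydrophobic signal emerging from the ribosome and docks it on the SRP receptor at the ER. The Sec61 channel then threads the chain through the membrane, the translocon-associated protein (TRAP) complex assists it, and signal peptidase removes the signal. Folded cargo leaves in COPII vesicles, whose inner layer of SEC23 and SEC24 selects cargo and whose outer cage is SEC13 and SEC31. COPI vesicles carry escaped ER residents and recycling receptors back. Many genes of this route are targets of factors of the unfolded protein response, the transcriptional program that expands ER capacity, and of the CREB3 family, which bind short promoter elements.

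Promoter letters of these genes are shown first, because the members that rose and those that fell are counted against them later. Promoter windows from RefSeq (GRCh38.p14), running from 250 bases before to 50 bases after each start site, covered 60 of the 67 members. KDELR2, LMAN1L, SEC24D, SPCS1, SRPRA, TMED4 and TMED9 had no entry. The windows were searched on both strands for the unfolded protein response element (UPRE) as TGACGTGG and for a CREB3L-type element as TGCCACGT. The pair share the letters CCACGT (read on opposite strands), so 1 site can match both. Each sequence is written 5′ to 3′ on the strand of its gene, with the matched letters in capitals, and a match on the opposite strand appears as its reverse complement. The first 6 lines belong to coat members that rose after EIF1 knockdown, the next 3 to entry members that fell, and the last to SEC23A, whose close relative SEC23B fell and had no match.
COPA, UPRE, chr1:160343227-160343256, minus strand: gagagggtcgcTGACGTGGaggcgtccgaa
SEC24A, UPRE, chr5:134648595-134648624, plus strand: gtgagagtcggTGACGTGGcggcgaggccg
SEC24A, CREB3L, chr5:134648729-134648758, plus strand: ggagccggaagTGCCACGTgtcctgattgc
SEC31A, CREB3L, chr4:82891191-82891220, minus strand: gcggctgcggcTGCCACGTtggaacggaac
SEC13, CREB3L, chr3:10321072-10321101, minus strand: ccgccgggagcTGCCACGTccgagacctgg
SEC24C, CREB3L, chr10:73744289-73744318, plus strand: ccgaaatgcagACGTGGCAgaagaagtggc
SEC62, UPRE, chr3:169966779-169966808, plus strand: ccctcctcgctCCACGTCAgagggaaccgg
SSR3, UPRE, chr3:156554148-156554177, minus strand: tctgataacagCCACGTCAgcaaggaaact
SSR3, CREB3L, chr3:156554880-156554909, minus strand: gctgggcggggACGTGGCAggacccggcga
SEC23A, UPRE, chr14:39103221-39103250, minus strand: tcccctcctctTGACGTGGcagaggcggcg

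Both elements were common among the members. The UPRE letters stood in the window of 12 of 60 members (20.0%), against 133 of 10481 tested protein-coding genes with a window (1.27%) and 253 of 27305 genes in the promoter table (0.927%). The CREB3L letters stood in 12 of 60 members (20.0%), against 107 (1.02%) and 226 (0.828%) of the same sets. Members had 1.32 windows per gene and the tested protein-coding genes 1.47, and the median G+C content of the windows was 65.7% and 64.7%. Counted per window, 16.5% of the members' windows held the UPRE letters and 0.88% of those of the tested genes. The cyclic AMP response element TGACGTCA, differing from the UPRE in its last letters, was in no member window and in 3.81% of tested genes. The ER stress elements ERSE and ERSE-II were also in none. Only 0.153% and 0.134% of tested genes had them, so their absence among 60 members is uninformative.

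**Figure D1:**
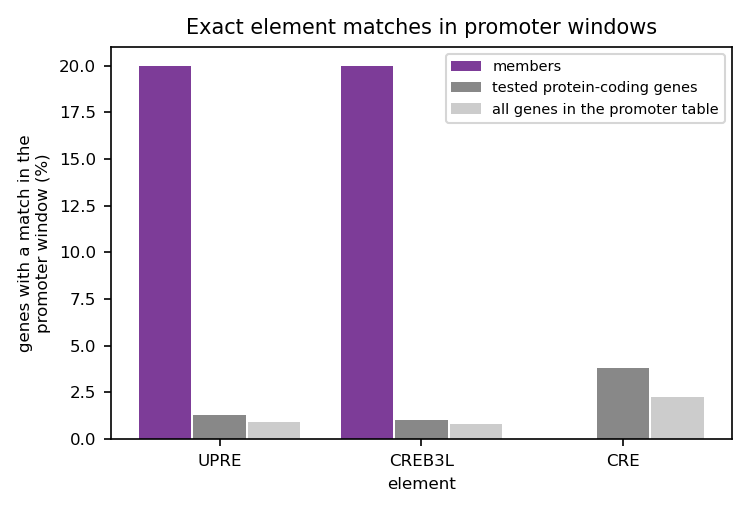
Share of genes (%, vertical axis from 0) whose promoter window holds an exact match to the UPRE, CREB3L or CRE letters, for the 60 members with a window, the 10481 tested protein-coding genes and all 27305 genes of the promoter table. The UPRE and CREB3L bars of the members stand at 20.0%, the UPRE and CREB3L bars of the other sets lie near 1%, and the CRE has no bar for the members.

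For the comparison of siEIF1 with NC, 65 of the 67 members had enough counts to be tested. LMAN1L, a lectin homologue, had 0 or 1 counts in each library, and TMED6, a p24 protein, had 3 to 7. Levels below are CPM (counts scaled to a common library total, after TMM), and changes are log2 differences of siEIF1 minus NC with their standard error (SE). The adjusted p comes from the quasi-likelihood test of edgeR, corrected by the Benjamini-Hochberg method across 16749 genes.

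The members moved little, in both directions. At an adjusted p under 0.05, 14 of 65 passed (21.5%), against 20.6% of all tested genes. Of these, 6 were higher in siEIF1 (9.23%, against 10.2% of all tested genes) and 8 were lower (12.3%, against 10.4%). Among genes with a mean count of at least 1000, 12 of 50 members passed (24%, against 30.6%), 5 of them higher (10%, against 17.6%) and 7 lower (14%, against 13%). These shares lie near or below the background, so the number of members that passed is not itself a result. None changed more than 2-fold together with an adjusted p under 0.05, a limit passed by 1.71% of all tested genes. The median log2 change was -0.003 over the members and 0.0033 over all tested genes. In 33 members the NC and siEIF1 values did not overlap (50.8%, against 37.1% of all tested genes), 16 of them higher (24.6%, against 18.2%) and 17 lower in siEIF1 (26.2%, against 18.9%). With the mean count at 1000 or more, the share was 54% of members and 48.7% of genes.

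The entry and transport members had medians on opposite sides of 0. Of the 23 entry members, 0 rose and 6 fell, with 19 of 23 below 0 and a median of -0.11. Of the 42 tested transport members, 6 rose and 2 fell, with a median of 0.033. Among all tested genes, 10.2% rose and 10.4% fell, and 8266 of 16749 had estimates below 0. With a mean count of at least 1000, 17.6% rose and 13% fell. These shares are also the background for the counts of each complex below. Within the libraries, the median of the entry members relative to the NC mean lay between -0.031 and 0.051 in NC and between -0.13 and -0.079 in siEIF1. That of the transport members lay between -0.036 and 0.0083 in NC and between 0.029 and 0.056 in siEIF1. Neither pair of ranges overlapped, but that is not particular to these members. The median of all tested genes lay between -0.0013 and 0.002 in NC and between 0.0031 and 0.0053 in siEIF1. For genes with a mean count of at least 1000 it lay between -0.0039 and 0.0079 in NC and between 0.0137 and 0.0168 in siEIF1. The median change of those genes was 0.0147. This division into entry and transport was made with earlier results of these data known and was given no test.

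**Figure D2:**
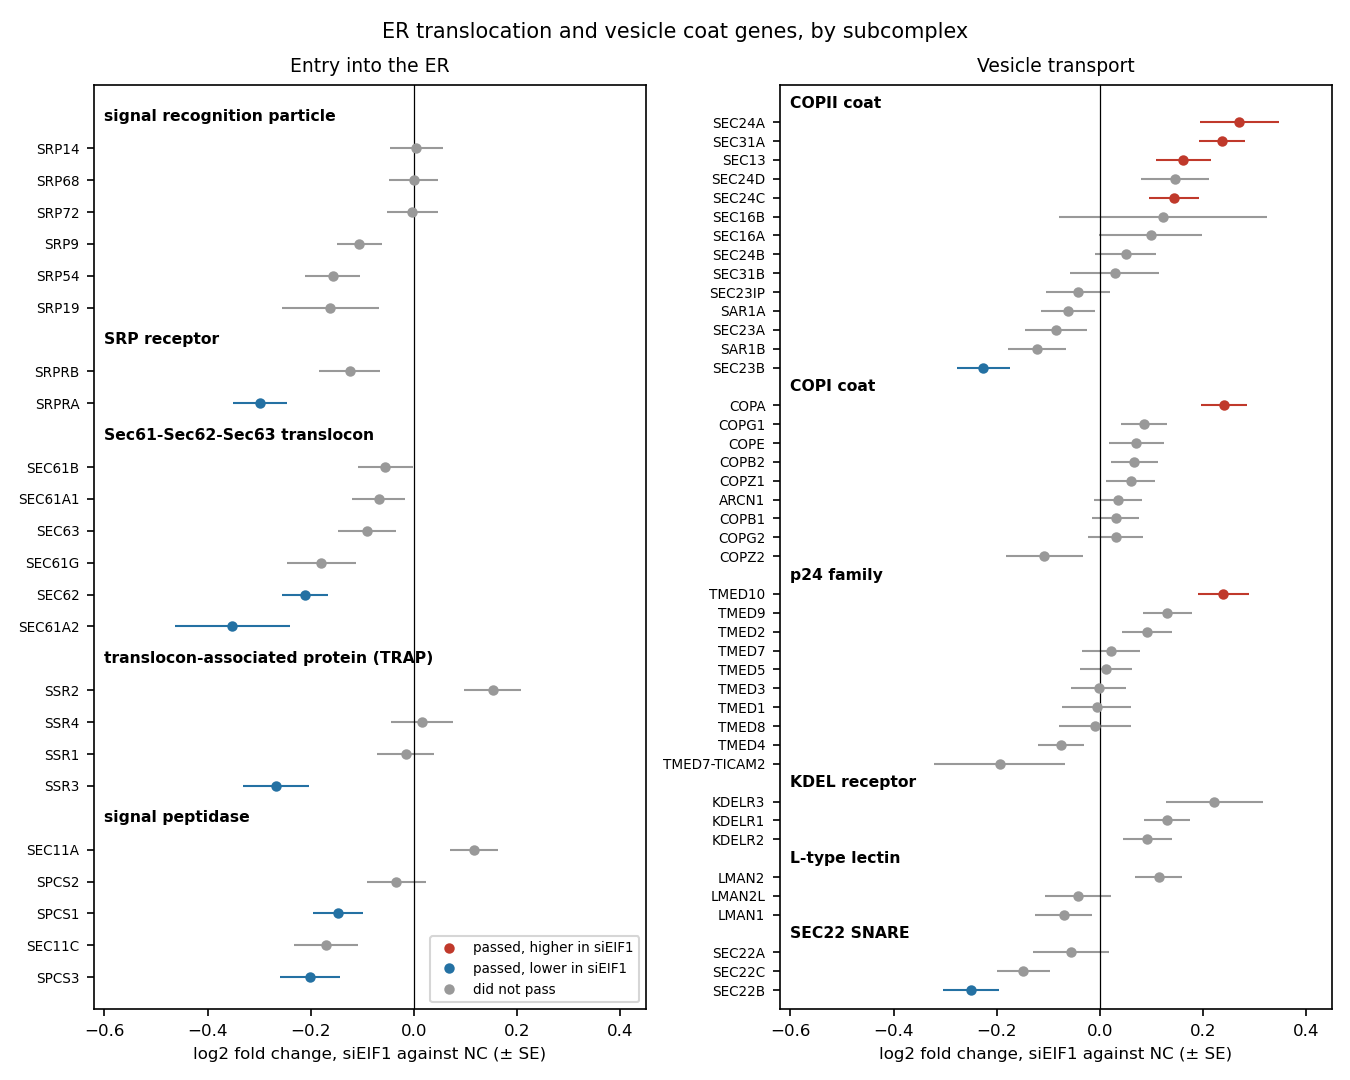
Log2 change of siEIF1 against NC (horizontal axis, points with SE bars) for the 65 tested members, grouped by complex, with entry into the ER on the left and vesicle transport on the right. The 8 members that passed and were lower (blue) include 6 on the entry side, and the 6 that passed and were higher (red) are all on the transport side.

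The signal recognition particle did not pass the test in any of its 6 protein subunits, and its median change was -0.055. SRP9 and SRP14 form the domain that slows elongation, and SRP54 is the GTPase that grips the signal. SRP54 measured 67.2, 64.6 and 60.2 CPM in NC and 57.7, 57.3 and 57.1 in siEIF1, a change of -0.16 (SE 0.053) with an adjusted p of 0.0535, just outside the threshold. Its siEIF1 values lay below every NC value and spanned 0.63 CPM. SRP9 gave 173.5, 176.6 and 174.5 CPM against 165.5, 160.2 and 161.6 (-0.11, adjusted p 0.107). SRP19, which helps the particle's RNA to fold, gave the lowest estimate at -0.16 with a wide SE of 0.094. SRP14, SRP68 and SRP72 were between -0.003 and 0.0047, and the sign for SRP14 turned under some settings.

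The alpha subunit of the SRP receptor fell furthest among the members kept under every setting. SRPRA is the GTPase that receives the particle at the ER membrane, and it lies on chr11:126262938-126269144 (GRCh38, minus strand, 14 exons in the canonical transcript). It measured 126.5, 119.4 and 120.5 CPM in NC and 94.7, 98.2 and 105.1 in siEIF1. The nearest NC and siEIF1 values were 14.3 CPM apart. The change was -0.30 (SE 0.052, adjusted p 0.0013), and leaving out any 1 library kept it between -0.34 and -0.27. SRPRB, which anchors the alpha subunit, was also without overlap, at 51.3 to 55.9 CPM against 46.2 to 51.1, but it did not pass (-0.12, adjusted p 0.159).

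All 6 translocon genes had estimates below 0, and 2 of them passed. SEC61A1 encodes the channel itself and measured 391.7, 365.5 and 377.4 CPM in NC and 365.9, 343.3 and 372.8 in siEIF1. Those ranges overlapped, and its change of -0.07 (SE 0.051) did not pass. SEC62, which serves the import of short and fully made chains, fell from 104.9, 109.0 and 106.2 to 91.8, 91.1 and 93.6 CPM (-0.21, SE 0.045, adjusted p 0.0051). The groups did not meet, with 11.3 CPM between their nearest values. SEC61A2, the less abundant alternative channel subunit, had the lowest estimate of all members, at 6.78, 7.94 and 8.28 CPM against 5.99, 6.26 and 5.79 (-0.35, SE 0.11, adjusted p 0.0384). That call was lost on leaving out any library except NC replicate 1, with adjusted p of 0.0714 to 0.155, and with DESeq2 and both limma fits. The small subunits SEC61B (-0.06) and SEC61G (-0.18) and the chaperone-recruiting SEC63 (-0.09) did not pass, and SEC61G did not overlap between groups.

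The 4 TRAP subunits had estimates on both sides of 0, and 1 of them passed. SSR3, the gamma subunit (chr3:156539553-156555149, minus strand), had the highest CPM of any member, on a scale that is not divided by length. It measured 566.5, 481.4 and 503.7 CPM in NC and 433.3, 406.7 and 448.9 in siEIF1. The highest siEIF1 value lay below the lowest NC value, while NC replicate 1 stood well above the other NC libraries. Its change was -0.27 (SE 0.064, adjusted p 0.0092), and without siEIF1 replicate 2 the adjusted p was 0.0540. SSR2, the beta subunit, lay the other way, at 149.6, 157.3 and 155.6 CPM against 168.2, 185.0 and 161.1 (0.15, SE 0.055, adjusted p 0.0678), which did not pass. SSR1 and SSR4 had estimates of -0.02 and 0.02.

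Of the 5 signal peptidase genes, 2 fell and 3 did not pass, with a median of -0.15. Among all tested genes, 10.4% fell. SPCS3, a non-catalytic subunit needed for cleavage, fell from 125.6, 111.9 and 115.8 CPM to 103.5, 95.8 and 107.9 (-0.20, SE 0.058, adjusted p 0.0259). SPCS1, a small membrane subunit, fell from 112.9, 111.9 and 109.6 to 101.7, 104.4 and 95.9 (-0.15, SE 0.049, adjusted p 0.0471). The groups of both were without overlap, but neither call was firm: SPCS1 lost it on leaving out any 1 library (adjusted p 0.0582 to 0.114), and SPCS3 without NC replicate 1, NC replicate 3 or siEIF1 replicate 2 (0.0656 to 0.128). The catalytic subunits lay on opposite sides. SEC11A, the more abundant, was 185.5, 184.9 and 177.7 CPM in NC and 202.4, 201.5 and 190.6 in siEIF1 (0.12, adjusted p 0.0977). SEC11C was 33.2, 32.2 and 33.0 against 30.5, 29.6 and 27.3 (-0.17, adjusted p 0.0680). Neither passed alone, although both were without overlap.

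Of the 14 COPII genes, 4 rose, 1 fell and 9 did not pass, while 10.2% of all tested genes rose and 10.4% fell. The COPII median was 0.074 and ran from 0.010 to 0.11 on leaving out 1 library. Of the 4 COPII genes that rose, SEC31A and SEC24A kept the call with DESeq2, and SEC31A alone with both limma fits. The cage protein SEC31A (chr4:82818509-82901166, minus strand, 27 exons) measured 139.1, 146.4 and 144.0 CPM in NC and 167.3, 167.7 and 170.8 in siEIF1. The siEIF1 libraries spanned 3.56 CPM, and the lowest of them was 20.9 CPM above the highest NC library. Its change was 0.24 (SE 0.045, adjusted p 0.0022) and passed under every setting. SEC13, its cage partner and also a nuclear pore protein, gave 84.9, 77.3 and 78.8 against 93.3, 90.6 and 85.8 (0.16, SE 0.054, adjusted p 0.0483). SEC13 lost the call without NC replicate 2, NC replicate 3, siEIF1 replicate 1 or siEIF1 replicate 2 (adjusted p 0.136 to 0.196), with RLE or upper-quartile scaling, without the filter, and with DESeq2 and both limma fits.

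SEC24 proteins bind the cargo, and all 4 had estimates above 0. SEC24A rose from 15.3, 15.4 and 17.5 CPM to 18.4, 19.5 and 20.2 (0.27, SE 0.076, adjusted p 0.0230), the largest estimate of any member. SEC24C, the most abundant of the 4 by CPM, rose from 84.5, 86.5 and 85.2 to 91.6, 92.9 and 98.5 (0.14, SE 0.048, adjusted p 0.0493). SEC24D had an estimate of 0.15 with a larger SE of 0.066, and it did not pass (adjusted p 0.142), while SEC24B was at 0.05. Both limma fits lost the calls for SEC24A and SEC24C (adjusted p 0.117 to 0.145), and RLE scaling, DESeq2 and no filter also lost that for SEC24C (0.0535 to 0.138). On single libraries, SEC24C lost it on leaving out any 1 of the 6 (adjusted p 0.0537 to 0.149). SEC24A lost it without NC replicate 1, NC replicate 2, siEIF1 replicate 2 or siEIF1 replicate 3 (0.0604 to 0.0972).

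SEC23B was the 1 COPII gene that fell. SEC23 proteins are the GTPase-activating partners of SEC24, and SEC23B lies on chr20:18507520-18561415 (plus strand, 20 exons). It fell from 66.4, 63.7 and 67.1 CPM to 57.5, 54.1 and 56.9 (-0.23, SE 0.051, adjusted p 0.0067), under every setting. The lowest NC value stood 6.16 CPM above the highest siEIF1 value. SEC23A was 50.0, 48.1 and 50.3 against 50.3, 43.8 and 45.6, which overlapped (-0.09, adjusted p 0.358). The initiating GTPases SAR1A and SAR1B had estimates of -0.06 and -0.12 and did not pass. SEC16A, the scaffold of ER exit sites, spread widely among the siEIF1 libraries, at 65.9, 80.6 and 93.4 CPM, around an NC range of 69.5 to 81.7. SEC31B (0.03) and the rare SEC16B (0.12, SE 0.20) overlapped between groups.

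In COPI, 8 of 9 genes had estimates above 0, with a median of 0.060 and only COPA past the threshold. COPA, the alpha subunit of the outer coat (chr1:160288594-160343566, minus strand, 33 exons), rose from 165.9, 164.8 and 170.7 CPM to 191.9, 199.9 and 200.4. The lowest siEIF1 value was 21.2 CPM above the highest NC value. The change was 0.24 (SE 0.045, adjusted p 0.0021), with 0.22 to 0.26 on leaving out each library. Its outer-coat partners COPB2 and COPE had estimates of 0.07 and 0.07 (adjusted p 0.344 and 0.394). In the adaptor layer, COPG1 was at 0.09, COPZ1 at 0.06, ARCN1 at 0.04, and COPB1 and COPG2 at 0.03. COPZ2, the minor zeta subunit, was the exception below 0 at -0.11 (SE 0.075). COPB2 and COPG1 did not overlap between groups, although neither passed.

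Among the p24 proteins, which cycle between the ER and the Golgi and help to load cargo, TMED10 alone passed. It rose from 156.9, 151.7 and 145.3 CPM to 185.5, 175.3 and 175.1 (0.24, SE 0.049, adjusted p 0.0035), under every setting. Its lowest siEIF1 value was 18.2 CPM above its highest NC value. TMED2, its usual partner in the p24 complex, gave 183.7, 167.9 and 174.6 against 191.5, 182.0 and 186.8, which overlapped (0.09, adjusted p 0.221). TMED9 was at 0.13 (adjusted p 0.0663) and TMED4 at -0.08, both without overlap. TMED1, TMED3, TMED5, TMED7 and TMED8 lay between -0.01 and 0.02. The read-through gene TMED7-TICAM2 shares exons with TMED7, so its value of -0.19 (SE 0.13) is uncertain.

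The 3 KDEL receptors, which return ER residents from the Golgi, were all without overlap and higher in siEIF1, yet none passed. KDELR1 was 226.0, 232.0 and 233.8 CPM in NC and 256.5, 253.9 and 246.4 in siEIF1 (0.13, SE 0.045, adjusted p 0.0585). KDELR2 was 151.7, 144.9 and 149.1 against 163.4, 152.0 and 159.7 (0.09, adjusted p 0.197), a gap of 0.31 CPM. KDELR3, far less abundant, had 7.55 to 8.70 against 9.01 to 9.75 (0.22, adjusted p 0.121). The lectin cargo receptors LMAN1, LMAN2 and LMAN2L had estimates of -0.07, 0.11 and -0.04, and LMAN2 did not overlap between groups.

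The SEC22 proteins are ER-Golgi SNAREs or relatives of them, and all 3 had estimates below 0. SEC22B, the SNARE of traffic in both directions (chr1:120150898-120176520, minus strand), fell from 101.5, 90.9 and 94.1 CPM to 79.7, 77.1 and 84.0 (-0.25, SE 0.055, adjusted p 0.0060), under every setting. No siEIF1 library came within 6.86 CPM of an NC library. Its unprocessed pseudogenes SEC22B2P and SEC22B4P had 0 to 10 counts, so few reads were assigned to the copies. SEC22C was without overlap, at 41.8 to 42.8 CPM against 37.8 to 38.4 (-0.15, adjusted p 0.0605), and SEC22A was at -0.06 (adjusted p 0.648).

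**Figure D3:**
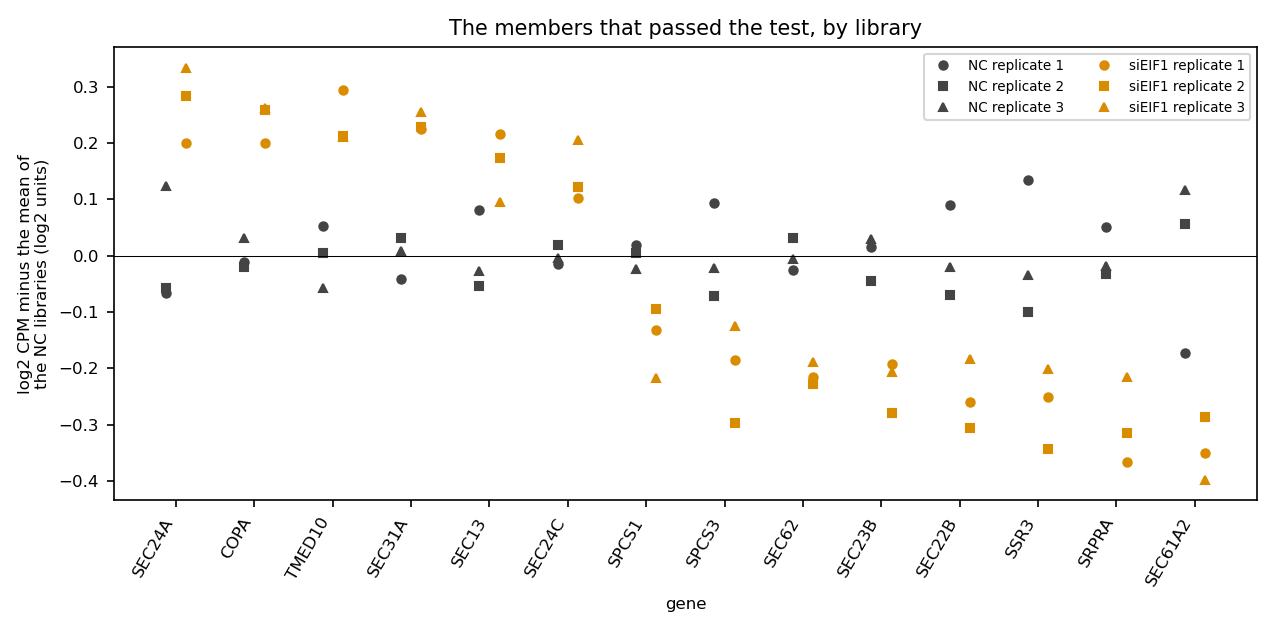
Log2 CPM of each library minus the mean of the 3 NC libraries (vertical axis) for the 14 members that passed, ordered by change, with NC in grey, siEIF1 in orange and the replicate number as the marker shape. NC and siEIF1 points do not overlap for any of the 14, and the gap between the groups is narrowest for SEC13.

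Levels between genes can be set side by side only per length, here as CPM per kilobase of the canonical GENCODE transcript in NC. SSR4 was the highest at 238, followed by SEC11A (169), SEC61G (159), KDELR1 (149) and SSR2 (139). Among paralogues, SEC61A1 stood at 106 and SEC61A2 at 3.07, COPZ1 at 86.0 and COPZ2 at 22.9, SEC23B at 21.7 and SEC23A at 12.9, and SEC24C at 19.2 and SEC24A at 2.52. The SEC24 member with the largest relative rise was thus the scarcest of the 4, SEC24B being at 7.57 and SEC24D at 6.19. The per-length values rest on the canonical transcript alone. The length that the deposited counts and FPKM imply together was 1.23 to 16.8 times the canonical length, so genes of different length are not ranked here by FPKM. That ratio was 9.214 for SSR4, 7.375 for SSR2, 6.258 for SEC11A and 5.296 for SEC61G, but 1.781 for KDELR1. The order by canonical length is therefore uncertain too. Mean FPKM in NC was 26.04 for SSR4 and 19.03 for SSR2, against 84.25 for KDELR1 and 81.88 for SSR3.

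Ratios between related genes within a library do not depend on the scaling between libraries. In 18 such pairs, the log2 FPKM ratio was without overlap between groups in 5. Against SEC11C, SEC11A stood at 2.07, 2.11 and 2.01 in NC and at 2.31, 2.35 and 2.39 in siEIF1, a difference of 0.29. SEC23A against SEC23B differed by 0.14, COPZ1 against COPZ2 by 0.17, LMAN2 against LMAN2L by 0.15 and TMED4 against TMED9 by -0.21. Each of the 5 reached 0.1 in a two-sided exact permutation test, the smallest p that 3 against 3 allows, and 0.36 after adjustment over the 18 pairs, so none can pass at this size. The pairs SEC61A1 with SEC61A2 (0.28), SEC24A with SEC24B (0.23) and SEC31A with SEC31B (0.21) overlapped between groups (exact permutation p 0.2 each). SEC24C and SEC24D moved alike in value, with a difference of 0.0019 and leave-one-out values of -0.033 to 0.060.

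**Figure D4:**
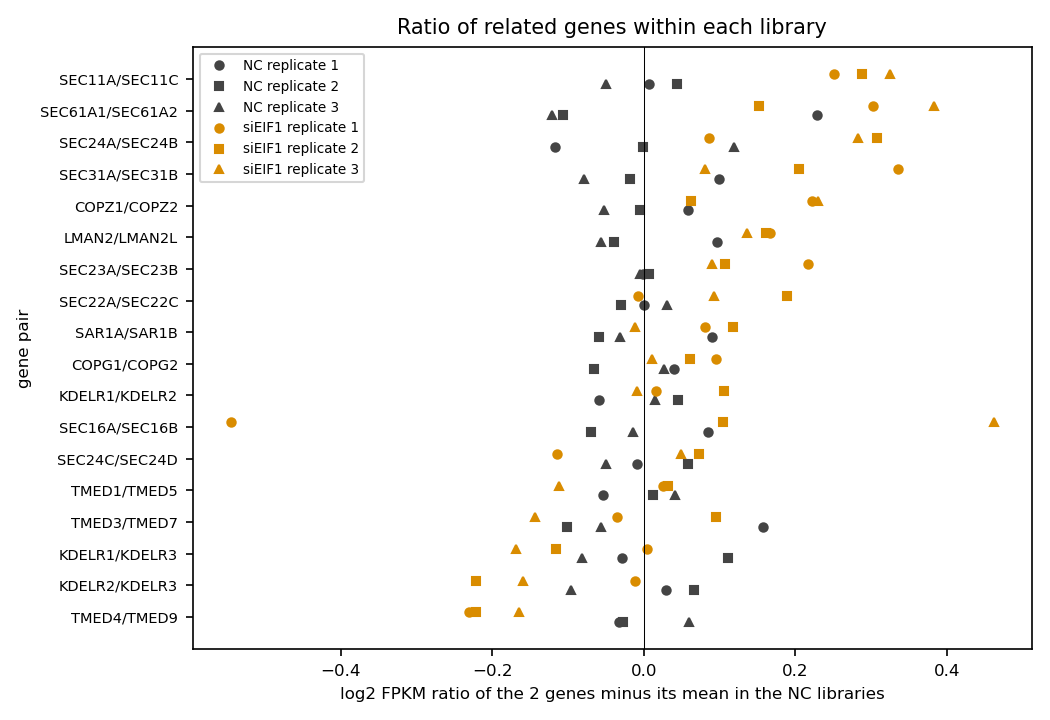
Log2 FPKM ratio of 18 pairs of related genes in each library, minus the NC mean of the pair (horizontal axis), with NC in grey, siEIF1 in orange and the replicate number as the marker shape. Grey and orange points separate fully in 5 pairs, with the largest shift in SEC11A/SEC11C (0.29), and SEC16A/SEC16B has the widest spread among the siEIF1 libraries.

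Set against the promoter elements printed above, the members with and without a UPRE or CREB3L match were counted apart. Of 18 members with either match, 5 rose (COPA, SEC13, SEC24A, SEC24C and SEC31A), 2 fell (SEC62 and SSR3) and 11 did not pass, with a median change of 0.079. The share that rose was 27.8% and the share that fell 11.1%, against 10.2% and 10.4% of all tested genes. Most of these 18 members had a mean count of at least 1000. Among tested genes with such counts, the shares were 17.6% and 13%. The calls for SEC13, SEC24A and SEC24C were lost under several settings, as given above, and that for SSR3 without siEIF1 replicate 2. Of 41 tested members with a window and no match, 1 rose (TMED10), 4 fell and 36 did not pass, with a median of -0.034 (2.44% rose and 9.76% fell). The 14 transport members with a match included 5 that rose and 0 that fell. The 4 entry members with a match, SEC62, SRP19, SSR3 and SSR4, included 0 that rose and 2 that fell. Among COPII genes, all 4 that rose were among the 8 with a match, and SEC23B was among the 5 without one. These counts carry no test, and a match of letters does not show that a factor binds there.

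A list of 12 factors that regulate secretory and lysosomal genes, with the proteases that activate some of them, was measured too. Of these, 3 rose, 1 fell and 8 did not pass (33.3% passed, against 20.6% of all tested genes). Among tested genes with a mean count of at least 1000, 30.6% passed. XBP1, whose spliced form drives the unfolded protein response and binds the UPRE, fell from 64.76, 50.25 and 55.95 FPKM to 42.86, 38.27 and 45.43 (-0.41, SE 0.078, adjusted p 0.00215). A gene count does not tell spliced from unspliced XBP1. MBTPS1, a Golgi protease that cleaves ATF6 and CREB3-type factors, rose from 8.55, 8.4 and 8.86 to 9.7, 9.94 and 10.73 FPKM (0.25, adjusted p 0.00214). TFEB, a regulator of lysosomal genes, rose from 0.92, 0.98 and 1.07 to 1.26, 1.28 and 1.35 (0.40, adjusted p 0.00641). ATF6B, an ER membrane-bound relative of ATF6 that was named after its values were seen, rose from 16.45, 17.93 and 18.01 to 19.57, 20.29 and 20.35 (0.22, adjusted p 0.00866). ATF6 itself did not pass (-0.14, adjusted p 0.127). CREB3, CREB3L1 and CREB3L2 had estimates of 0.05, 0.15 and 0.04 and overlapped between groups.

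The known partners of these complexes were counted in 4 further lists. Among 20 tested genes of membrane insertion and targeting, 1 rose and 5 fell (30% passed, against 20.6% of all tested genes), with a median of -0.023. With a mean count of at least 1000, 30.6% of tested genes passed, a second background for each of the 4 lists. TMCO1, an insertase of the multipass translocon, fell from 15.57, 14.64 and 14.67 FPKM to 12.43, 11.72 and 11.81 (-0.30, adjusted p 0.00103), and DNAJC1, an ER co-chaperone, fell by 0.34 (adjusted p 0.00219). EMC6, a subunit of the ER membrane complex, rose from 20.68, 19.88 and 21.57 FPKM to 26.72, 27.37 and 23.54 (0.34, adjusted p 0.00717).

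Of 20 tested COPII regulators and cargo partners, 1 rose and 4 fell (25% passed), with a median of -0.041. SURF4, a cargo receptor for soluble proteins, fell from 31.51, 28.76 and 31.5 FPKM to 24.12, 23.14 and 26.32 (-0.30, SE 0.052, adjusted p 0.00128). MIA2, which organizes exit sites for bulky cargo, fell by 0.29 (adjusted p 0.0203), and BCAP31, an ER export receptor, fell by 0.16 (adjusted p 0.0252). The call for MIA2 was lost without NC replicate 1 or siEIF1 replicate 2 (adjusted p 0.0923 and 0.1005) and with both limma fits (0.0888 and 0.0945). That for BCAP31 was lost without NC replicate 1, NC replicate 3 or siEIF1 replicate 2 (0.0746 to 0.085).

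Of 11 COPI and ARF regulators, ARF3, a Golgi GTPase, rose by 0.20 (adjusted p 0.00936) and ARFGAP2, which ends the GTPase cycle on COPI coats, fell by 0.20 (adjusted p 0.0123). The ARFGAP2 call was lost without NC replicate 3 (adjusted p 0.0538). The remaining 9 did not pass, so that 18.2% of the list passed. Among 44 SNAREs, tethers and RAB proteins, 7 rose and 3 fell, with a median of 0.032. The 22.7% that passed is near the background of 20.6%, and the number that rose was 4 with each limma fit and 3 without NC replicate 3. ZW10, part of the tether that receives COPI vesicles at the ER and also a kinetochore protein, rose from 3.8, 3.39 and 3.62 FPKM to 5.58, 5.08 and 5.31 (0.58, SE 0.074, adjusted p 0.000119), the largest change in these lists. TRAPPC1, a subunit of the TRAPP tether, rose by 0.33 (adjusted p 0.00215), and the Golgi matrix protein GOLGA2 rose by 0.24 (adjusted p 0.00536).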

How the data were processed

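RNA-seq of 6 ARPE-19 libraries was used, with groups and replicate numbers taken from the sample titles. Per the labels and the study's methods, polyadenylated RNA was captured, made into directional libraries and sequenced as 150 nt read pairs; reads under 16 nt were dropped and the rest aligned to GRCh38 with HISAT2, allowing 4 mismatches. From uniquely mapped reads the authors made 2 deposited tables, raw counts per gene and FPKM. The counting program, its strand setting and the annotation release are not given in the sources used here, so reads of a gene and its antisense partner (SRP14-AS1, SEC24B-AS1, SPCS3-AS1, SEC23A-AS1) may not be separated. The same holds for the members SEC24A (chr5:134648785-134727909, plus strand) and SAR1B (chr5:134601149-134649271, minus strand), which overlap each other. Read depth was 26499929 to 31431479 counts.

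Counts were fitted with edgeR 4.0.16 (TMM, filterByExpr, quasi-likelihood test) in R 4.3.3, which left 16749 genes. Alternatives were RLE and upper-quartile scaling, no filter, at least 10 counts in every library, DESeq2 1.42.0, limma 3.58.1 on log2(FPKM + 1) and log2(FPKM + 0.1), a replicate block and leaving out each library. The scripts were tested on simulated data. Coordinates and transcript lengths came from GENCODE 44, with all 67 members found.

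Genes are named by rule: members that passed, the member of highest FPKM (used only to pick a name) and the highest and lowest change of each complex, related pairs with a passed gene, untested members, and up to 3 genes of smallest p in each list of partners; other members are named for completeness. The members and lists were chosen with earlier results of these data known.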

Additional observations from a re-analysis of the deposited data

How the results depend on the processing

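Of the 14 members that passed, COPA, SEC31A, TMED10, SRPRA, SEC62, SEC22B and SEC23B passed under all 14 alternatives. The number kept was 12 with RLE or upper-quartile scaling, 11 without the filter, 14 with at least 10 counts in every library, 10 with DESeq2 and 9 with each limma fit. Leaving out 1 library kept 7 to 10, with the fewest without siEIF1 replicate 2. Apart from single libraries, SEC24A, SEC24C, SEC13, SEC61A2 and SPCS3 lost the call with both limma fits, SEC24C, SEC13, SEC61A2 and SPCS1 with DESeq2, SEC24C, SEC13 and SPCS1 without the filter, SEC24C and SEC13 with RLE, and SEC13 and SPCS1 with upper-quartile scaling. No member that passed was reversed.

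The members that rose numbered 3 with each limma fit and 3 to 9 on leaving out 1 library, with 3 without NC replicate 2 or siEIF1 replicate 2. Those that fell numbered 4 to 7 on leaving out 1 library. The median over all members then ran from -0.026 to 0.0051. With limma on log2(FPKM + 1) and log2(FPKM + 0.1), the medians were 0.039 and 0.040 for COPI, 0.018 and 0.035 for COPII, and -0.13 and -0.16 for SEC22, and for the L-type lectins -0.060 with the second. On leaving out 1 library, medians ran from 0.010 to 0.11 for COPII, -0.033 to -0.011 for the lectins, -0.16 to -0.14 for SEC22, -0.17 to -0.073 for the translocon and -0.16 to -0.11 for signal peptidase. SEC31B was reversed when NC replicate 1 (-0.038) or siEIF1 replicate 3 (-0.050) was left out, and ran from -0.050 to 0.097 over the 6 libraries left out in turn. SRP14 was reversed without the filter (-0.0014), with limma (-0.016 in both fits) and without NC replicate 2 (-0.027), NC replicate 3 (-0.0081), siEIF1 replicate 1 (-0.023) or siEIF1 replicate 2 (-0.0027), with a range of -0.027 to 0.042.

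In the lists of partners, the insertion genes that rose numbered 2 without the filter and with DESeq2, and 1 to 2 on leaving out 1 library, and those that fell 3 to 4. COPII regulators that rose numbered 0 without the filter and with DESeq2, and 0 to 1 on leaving out 1 library, and those that fell 1 to 4. COPI regulators that rose numbered 2 with upper-quartile scaling, without the filter and with DESeq2, and 1 to 2 on leaving out 1 library, and those that fell 0 to 1. SNAREs and tethers that rose numbered 4 with each limma fit and 3 to 7 on leaving out 1 library, and those that fell 1 to 3. Transcription factors that fell numbered 1 to 2. Pairs without overlap numbered 5 to 10. Searching only the core letters of an element gave 20 members for CRE (33.3%, against 14.0% of tested protein-coding genes), 51 for ERSE (85.0% against 57.3%), 28 for ERSE-II (46.7% against 43.1%) and 32 for CREB3L (53.3% against 15.8%). The CRE core TGACGT lies within the UPRE, so all 12 members with the UPRE were among the 20 for CRE. The ERSE core CCACG and the CREB3L core CCACGT lie within both the CREB3L letters and the UPRE read on the opposite strand. These core counts are therefore not independent of the UPRE and CREB3L matches. The cause of the other shifts was not tested.

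Same-numbered NC and siEIF1 libraries correlated at 0.156, 0.0888 and 0.121 in their deviations from the group means, so the numbers were not taken as pairs, although each library correlated best with its own number. With the replicate block all 14 members passed and 7 more did, 10 of the total being higher, and all genes that passed numbered 4277 against 3446. In that fit the insertion genes that rose numbered 2 and the COPI regulators 3. In the main fit, the smallest change of a member that passed was 0.14 on the log2 scale (SEC24C), and SRP54 at -0.16 did not pass. With the replicate block, KDELR1 at 0.13 and SEC11A at 0.12 passed. The SE differed by gene, so these values set no common limit of detection.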

Other observations

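The golgin GOLGB1, a tether of COPI vesicles, was 7.39, 7.68 and 7.99 FPKM in NC and 7.89, 9.23 and 10.57 in siEIF1, so that on this deposited scale siEIF1 replicate 1 lay within the NC range and replicate 3 well above it, while after TMM scaling of the counts the groups did not overlap (edgeR log2 change 0.28, adjusted p 0.0206). SEC16A had its lowest and highest siEIF1 values in the same libraries. TRAM1, a translocon partner, passed with overlapping groups, at 37.69, 46.94 and 48.07 FPKM in NC and 38.31, 35.44 and 37.56 in siEIF1 (log2 change -0.23, adjusted p 0.0403), with NC replicate 1 standing near the siEIF1 libraries. These genes were chosen after their values were seen.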
